A study of Mus musculus with 60 samples.

Results

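The genes described here encode the collagens, the laminin chains, the ADAMTS and MMP proteases and the TIMP inhibitors in mouse kidney. They were taken by symbol (Col, Lama, Lamb, Lamc, Adamts, Mmp or Timp followed by the number of the chain or enzyme) from the genes that reached 1 CPM (counts scaled to the size of the library) in at least 1 sample. Of 15546 genes that reached this level, 71 matched, and the other 31 of the 102 matching symbols stayed below it and were not tested. The 71 comprised 33 of 45 Col symbols, 11 of 11 laminins, 14 of 19 ADAMTS, 10 of 23 MMP and 3 of 4 TIMP genes. One Col symbol, Col4a3bp, encodes a ceramide transfer protein and matched by its letters only, which leaves 32 collagen genes. By their highest value in any mouse, Mmp19 (1.02 CPM) and Timp1 (1.11 CPM) lay just inside the threshold, and Timp4 (0.991 CPM) and Col25a1 (0.898 CPM) just outside.

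RNA sequencing was performed on kidneys of 60 male mice on a C57BL/6J background. The cKOt mice (Bmal1lox/lox/Pax8-rtTA/LC1-Cre) lose the clock transcription factor BMAL1 in renal tubule cells after doxycycline, since Pax8-rtTA switches on the recombinase in tubular epithelium, and the control mice were littermates carrying Bmal1lox/lox. Both genotypes drank doxycycline (2 mg/ml, with 20 mg/ml sucrose) for 2 weeks from 8 weeks of age and lived in 12 hours of light and 12 hours of dark, so that neither group was untreated. Per the methods of the study, kidneys were taken about a month after doxycycline ended. Mice were sampled at ZT0, ZT4, ZT8, ZT12, ZT16 and ZT20 (zeitgeber time, hours after lights on), with 5 mice per genotype and time point. The labels name the tissue renal tubule, whereas the methods of the study describe frozen pieces of whole kidney, and markers of fibroblasts, endothelium, macrophages and podocytes were all detected. In such samples, fewer cells of a type and less RNA per cell cannot be told apart.

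Every tubule rests on a basement membrane, a sheet made of a collagen IV network and a laminin network joined by linker proteins, while the interstitium between the tubules holds fibrillar collagens made mainly by fibroblasts. Collagen IV forms the α1α1α2 trimer in most basement membranes and the α3α4α5 trimer in the glomerulus and in part of the nephron. MMPs and ADAMTS proteases cut matrix proteins and their precursors, and TIMPs inhibit MMPs.

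Each library held 17791420 to 20906706 counts on genes (median 18545208.5). Arntl, the gene of BMAL1, ranged over the day in control mice between group means of 2.73 and 48.4 CPM, and in cKOt mice between 17.4 and 24.4 CPM. The counts take in exons outside the floxed part, so these values do not measure the deletion itself. One library, control ZT20 replicate 2, had the lowest summed level of 8 fibroblast markers (137 CPM, other mice 186 to 453 CPM) and of 7 inner medulla and urothelium markers (34.9 CPM, other mice 73.8 to 153 CPM). The same library was also lowest for 5 thick ascending limb markers (2917 CPM, other mice 3543 to 5713 CPM) and for 10 markers of smooth muscle, pericytes and mesangial cells (187 CPM, other mice 200.0 to 411 CPM), and it was second highest for 8 proximal tubule markers (20302 CPM, other mice 14399 to 21042 CPM).

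Stretches of sequence before the start of Col4a4, Col6a6 and Col27a1 are shown because the genotypes did not overlap for these genes at any time point. Each holds the 250 bases before the RefSeq start on GRCm38.p6, read 5′ to 3′ on the gene's strand. The gene spans given further on come from another annotation, GENCODE release M21, whose start of Col27a1 lies upstream of the RefSeq start (at 63215412) and of this window, and whose start of Col6a6 lies within the window shown (RefSeq start at 105828085). Capitals mark matches, on either strand, to AGGTCA (the core of nuclear receptor motifs, including those of the clock's REV-ERB and ROR factors) or to GGGCGG (the GC box).
Col4a4, chr1:82586850-82587099, minus strand: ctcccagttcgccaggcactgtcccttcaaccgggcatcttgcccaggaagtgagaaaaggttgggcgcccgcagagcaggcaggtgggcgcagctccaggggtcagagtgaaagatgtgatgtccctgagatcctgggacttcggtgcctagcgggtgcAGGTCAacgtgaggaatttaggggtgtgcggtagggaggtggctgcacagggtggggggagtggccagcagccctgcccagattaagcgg
Col6a6, chr9:105828086-105828335, minus strand: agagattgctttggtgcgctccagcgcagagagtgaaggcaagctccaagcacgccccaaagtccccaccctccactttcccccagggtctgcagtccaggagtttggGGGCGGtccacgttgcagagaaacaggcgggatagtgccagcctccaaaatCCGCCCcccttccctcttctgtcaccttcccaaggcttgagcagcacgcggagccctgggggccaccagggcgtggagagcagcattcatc
Col27a1, chr4:63215162-63215411, plus strand: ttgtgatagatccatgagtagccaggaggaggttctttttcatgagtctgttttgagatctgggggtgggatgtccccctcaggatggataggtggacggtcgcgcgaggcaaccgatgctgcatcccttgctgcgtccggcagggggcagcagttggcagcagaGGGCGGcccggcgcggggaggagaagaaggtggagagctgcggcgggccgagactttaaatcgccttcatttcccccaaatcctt

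Of the 71 genes, 47 had a RefSeq window in the table, 52 windows in all. CACGTG, the canonical E-box bound by CLOCK and BMAL1, was in 0 of the 52 windows and in 6.02% of all 32851 windows. TTANGTAA, the D-box, was in 1 of the 52 (1.92%, against 2.06% of all), AGGTCA in 7 (13.5%, against 14.0%) and GGGCGG in 31 (59.6%, against 32.7%). These shares describe the letters of a short window only, and the windows were not matched for base composition or expression. The median GC content of all windows was 52.4%, against 62.8%, 62.4% and 59.6% in the stretches of Col4a4, Col6a6 and Col27a1. The share of GGGCGG, a motif made of G and C only, is therefore not shown to be a trait of matrix genes. The match to AGGTCA in Col4a4 lay 90 bases before the start, and those to GGGCGG lay 142 and 91 bases before the start of Col6a6 and 85 before that of Col27a1. The stretch shown for Col4a4 runs into its neighbour, since Col4a3 starts 72 bases away on the opposite strand, at position 82586921 of chromosome 1. The match to AGGTCA thus lies past that start, inside the annotated span of Col4a3. Col4a3 itself had no window in the table, so none is shown for it. Col4a1 and Col4a2 are likewise placed head to head, with annotated starts 21 bases apart.

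Levels of different genes were compared per kilobase of exon (RPKM), as means of control and of cKOt mice. Timp3, the inhibitor that binds to the matrix, stood far above all others at 387 and 339 RPKM, and made up 53.9% of the summed CPM of the 71 genes. The next were Col4a3 (39.2 and 62.9 RPKM), Col4a4 (24.5 and 35.8 RPKM), Col4a1 (17.2 and 17.8 RPKM) and Adamts1 (16.2 and 15.1 RPKM). Interstitial collagens were lower, with Col1a2 at 2.75 and 2.32 RPKM and Col1a1 at 1.17 and 0.838 RPKM. By mean CPM, 7 genes had 100 or more, 28 lay between 10 and 100, 28 between 1 and 10, and 8 below 1. Within a group of 5 mice the median coefficient of variation of a gene ran from 6.24% to 62.0%, with a median of 21.1%.

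The first comparison asked which matrix and protease genes differ between cKOt and control mice when averaged over the day. Col6a6 and chains of collagen IV, the basement membrane collagen, were among the higher genes, and most fibrillar and interstitial collagens were lower. The genotypes differed for 41 of 71 genes, or 57.7%, where 50.0% of all genes passed the same test (edgeR quasi-likelihood test, Benjamini-Hochberg adjusted p below 0.05). Of these, 13 were higher in cKOt mice (18.3%, against 26.8% of all genes) and 28 lower (39.4%, against 23.2%), Col4a3bp among the latter. With a fold change above 1.2 added, 19 passed (26.8%, against 16.1% of all), 7 higher (9.86%, against 7.90%) and 12 lower (16.9%, against 8.16%). The median log2 fold change was -0.10 over the 71 genes and 0.01 over all genes. These shares describe the list, and the list itself was not tested. The excess of called genes depended on the samples and on the processing. Without replicate 2 of every group 29 of the 71 passed, and without replicate 3 of every group 31, in both cases a share below that of all genes. Without factors of unwanted variation in the fit 30 of the 71 passed, where 3442 of all 15546 genes were higher and 2938 lower, a similar share.

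**Figure D1:**
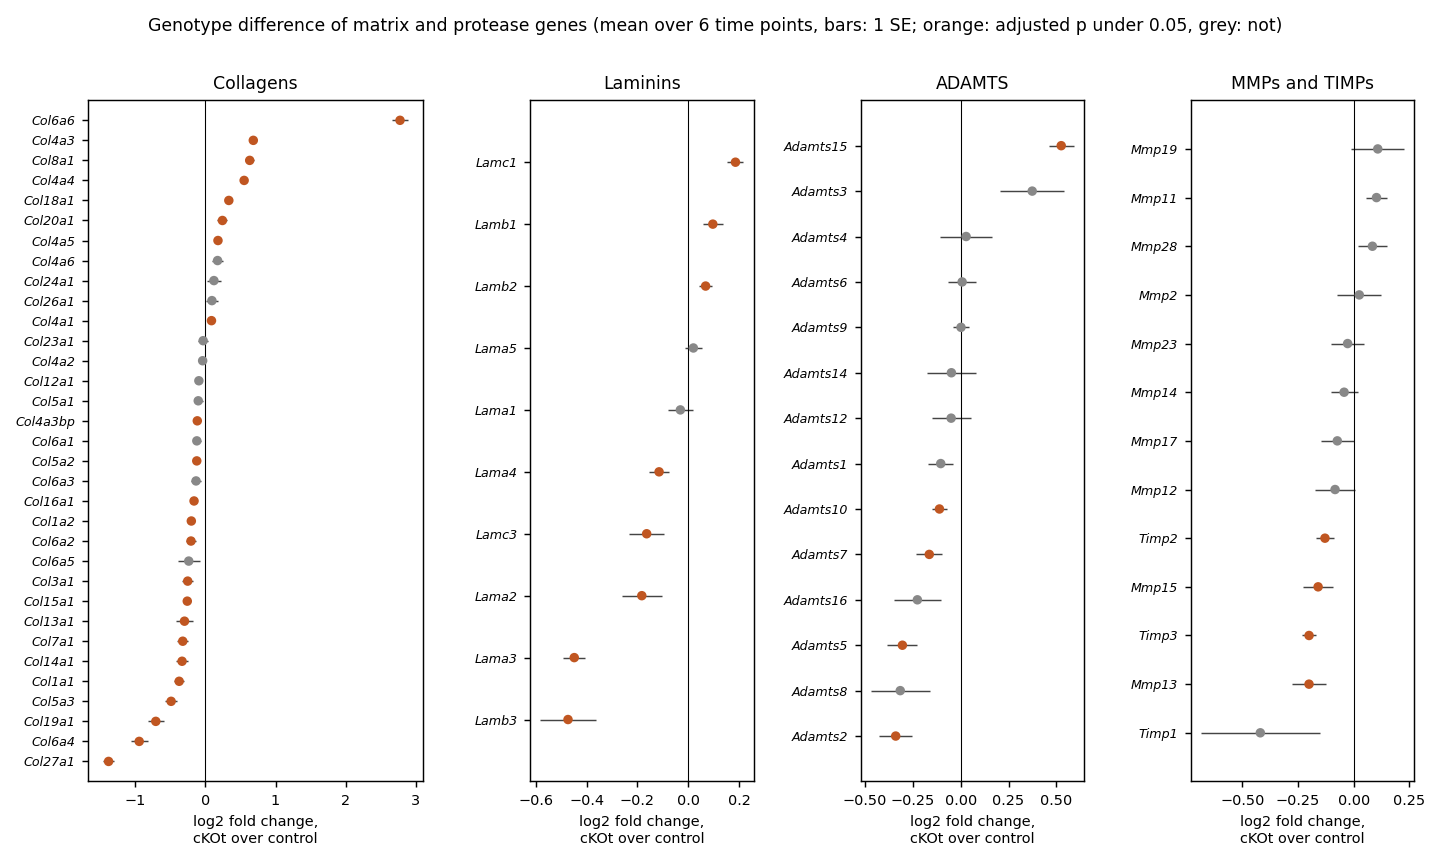
Genotype difference of 70 of the 71 genes, as log2 fold change of cKOt over control mice averaged over 6 time points (points) with 1 SE (bars), in panels by family. Orange genes passed the adjusted threshold, with Col6a6 at 2.77 as the highest value and Col27a1 at -1.38 as the lowest.

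Of the 6 collagen IV chains, 4 were higher in cKOt mice and 0 lower, with the large differences in the α3 and α4 chains. Col4a3 (chromosome 1, 82586921 to 82722059, plus strand, GRCm38) had 308 to 511 CPM in the 30 control mice (median 393) and 481 to 729.7 CPM in the 30 cKOt mice (median 633). The means were 391 ± 50.9 and 627 ± 55.4 CPM (SD over 30 mice, time of day included), a log2 fold change of 0.68 ± 0.03 (SE), or 1.61-fold (edgeR adjusted p = 1.15e-28). Col4a4 (chromosome 1, 82448423 to 82586849, minus strand) had 203 to 307 CPM in control mice (median 259.7) and 293 to 461 CPM in cKOt mice (median 383), a log2 fold change of 0.55 ± 0.03 (edgeR adjusted p = 1.74e-24). At each of the 6 time points, all 5 cKOt mice were above all 5 control mice for both genes.

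At ZT8, where the difference was largest, Col4a3 measured 308, 309, 323, 343 and 358 CPM in control mice and 557, 633, 636, 640.3 and 695 CPM in cKOt mice. The values of Col4a4 at ZT8 were 203, 219.6, 221, 238 and 257 CPM in control mice and 333, 382, 402, 422 and 461 CPM in cKOt mice. The highest control mouse was thus below the lowest cKOt mouse for each gene.

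The other chains moved less. Col4a5, the partner of α3 and α4 in the trimer, rose from 50.0 ± 3.52 to 56.5 ± 5.30 CPM, a log2 fold change of 0.18 ± 0.03 (edgeR adjusted p = 1.37e-07), and the genotypes were apart at 2 time points. Col4a1 differed by 0.09 ± 0.03 (edgeR adjusted p = 0.0123), a call lost under 5 of 17 alternative settings. For Col4a2 the value was -0.04 ± 0.03 (edgeR adjusted p = 0.314) and for Col4a6 0.17 ± 0.08 (edgeR adjusted p = 0.0616). Podocytes also make the α3α4α5 trimer, and of 7 podocyte markers 1 was higher and 1 lower, with a summed level of 323 to 448 CPM in control mice (median 381) and 317 to 421 CPM in cKOt mice (median 367). Among markers of tubule segments, 3 of 4 of the distal convoluted tubule were higher and 0 lower (summed level 1263 to 1764 CPM, median 1484, in control mice and 1343 to 1993 CPM, median 1627, in cKOt mice). Of 8 collecting duct markers 5 were higher and 2 lower (304 to 441 CPM, median 342, and 291 to 409 CPM, median 351), and of 5 thick ascending limb markers 3 were higher and 1 lower (2917 to 5713 CPM, median 4676, and 3543 to 4845 CPM, median 3971). Of 8 proximal tubule markers 3 were higher and 4 lower (16317 to 20302 CPM, median 17823, and 14399 to 21042 CPM, median 16612). Of 7 inner medulla and urothelium markers 1 was higher and 1 lower (34.9 to 153 CPM, median 119, and 73.8 to 134 CPM, median 103). The part of these cell types in the higher collagen IV levels was not tested.

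Col6a6 (chromosome 9, 105687809 to 105828160, minus strand), an alternative long chain of the microfibrillar collagen VI, had the largest difference of the 71 genes. Control mice held 3.27 to 32.9 CPM (median 6.84) and cKOt mice 33.7 to 83.4 CPM (median 53.4), with all cKOt mice above all control mice at each time point. The log2 fold change was 2.77 ± 0.11, or 6.84-fold (edgeR adjusted p = 7.23e-28). Control ZT0 replicate 1 reached 32.9 CPM where the other 4 mice of its group had 7.51 to 12.9 CPM, and without it the log2 fold change was 2.86. Ranges apart at all 6 time points in this direction were found for 0.708% of all genes and for 3 of the 71, Col4a3, Col4a4 and Col6a6. At the other end, 41 of the 71 genes (57.7%, against 73.1% of all genes) were apart at no time point.

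Col6a6 lies on chromosome 9 in a row with Col6a5 (27918 bases from it) and Col6a4 (28811 bases further on), all on the same strand. These neighbours were near the detection limit, and neither was higher in cKOt mice. Col6a4 fell from 1.07 ± 0.281 to 0.568 ± 0.226 CPM, a log2 fold change of -0.94 ± 0.12 (edgeR adjusted p = 2.79e-09). Col6a5 was at 0.593 ± 0.265 and 0.501 ± 0.220 CPM (edgeR adjusted p = 0.212). Of the classical chains of collagen VI, Col6a2 was lower (-0.20 ± 0.07, edgeR adjusted p = 0.0107, lost under 5 of 17 alternatives), while Col6a1 had -0.12 ± 0.05 (edgeR adjusted p = 0.0528) and Col6a3 -0.13 ± 0.07 (edgeR adjusted p = 0.113).

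Among the 8 fibrillar collagens, 6 were lower in cKOt mice and 0 higher. Col27a1 (chromosome 4, 63214004 to 63334991, plus strand), a fibrillar collagen best known from cartilage, differed most, with 53.2 to 155 CPM in control mice (median 94.0) and 19.8 to 52.9 CPM in cKOt mice (median 34.9). Its log2 fold change was -1.38 ± 0.08, or 2.60-fold lower (edgeR adjusted p = 1.52e-22). All cKOt mice were below all control mice at each of the 6 time points, which held for 0.675% of all genes and for 1 of the 71. At ZT16, where the control mean was highest, control mice measured 115, 116, 142, 146 and 155 CPM and cKOt mice 29.9, 39.3, 40.8, 44.7 and 52.9 CPM.

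**Figure D2:**
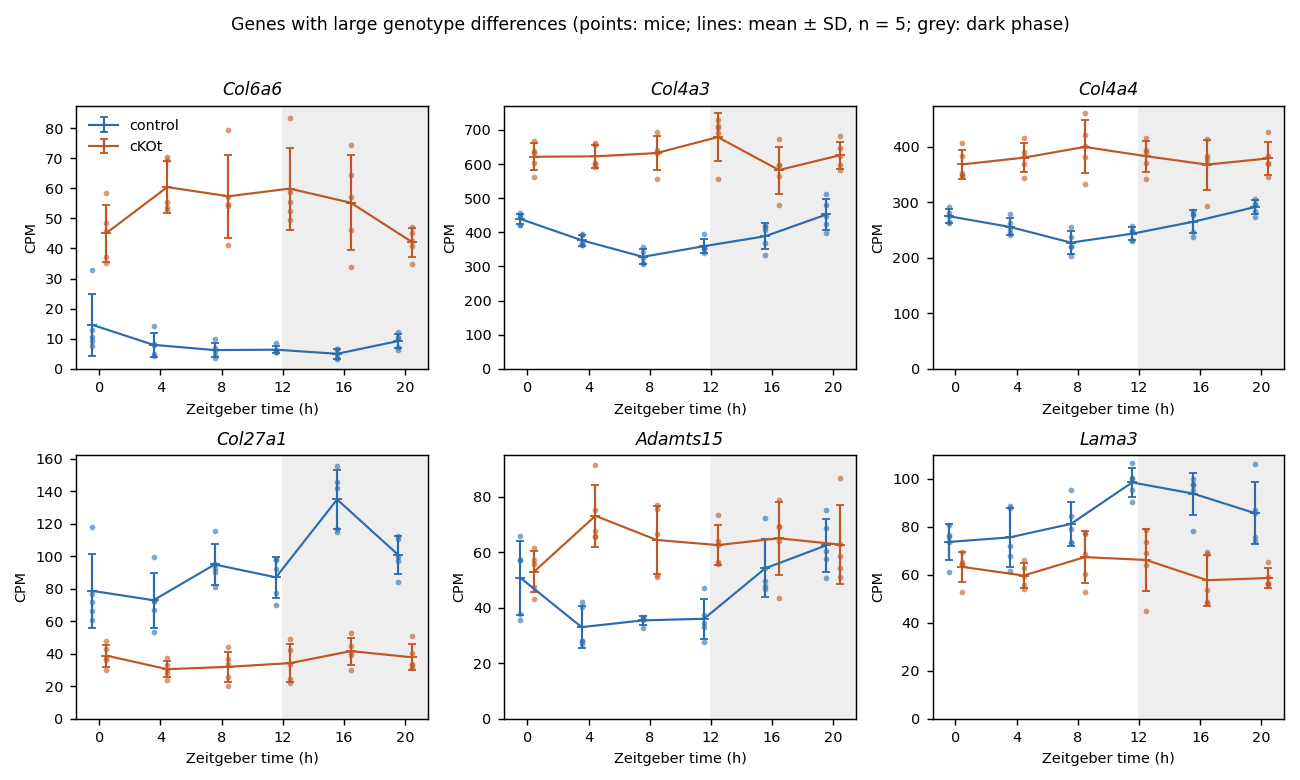
CPM of 6 genes in each of 60 mice against zeitgeber time, for control and cKOt mice (5 of each per time point). Col6a6, Col4a3, Col4a4 and Col27a1 do not overlap between genotypes at any time, whereas Adamts15 and Lama3 are apart at 3 time points each.

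Most collagens of interstitial fibres were lower, by smaller amounts. Of the collagen V chains, Col5a1 had a log2 fold change of -0.10 and did not pass the test. Col5a2 had -0.12, a call lost under 3 of 17 alternatives. Col1a1, the α1 chain of collagen I, had a log2 fold change of -0.37 ± 0.07 (edgeR adjusted p = 3.26e-05), its partner Col1a2 of -0.20 ± 0.06 (edgeR adjusted p = 0.00309), Col3a1 of -0.25 ± 0.08 (edgeR adjusted p = 0.00512) and Col5a3 of -0.49 ± 0.09 (edgeR adjusted p = 9.47e-06). Ranges overlapped widely, for Col3a1 with 5.30 to 35.4 CPM in control mice (median 22.8) and 8.62 to 27.6 CPM in cKOt mice (median 17.3), where the lowest value of all came from control ZT20 replicate 2. Without that library the values of Col1a1, Col1a2 and Col3a1 were -0.38, -0.20 and -0.28 and all passed the test, but without replicate 2 of every group Col1a2 and Col3a1 did not (edgeR adjusted p = 0.161 and 0.0588). Fibril-associated Col14a1 (-0.33 ± 0.08, edgeR adjusted p = 0.000463) and Col19a1 (-0.71 ± 0.11, edgeR adjusted p = 3.53e-07) were also lower, as was Col15a1 of basement membrane zones (-0.26 ± 0.06, edgeR adjusted p = 0.000109).

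Beside these genes, markers of several stromal cell types were lower. Of 8 fibroblast markers 4 were lower and 0 higher, with a summed level of 137 to 453 CPM in control mice (median 337) and 186 to 440.4 CPM in cKOt mice (median 288), and none of the 8 was at 0 in any mouse. Of 8 endothelial markers 8 were lower, with summed levels of 486 to 626 CPM (median 557) and 459.7 to 599.9 CPM (median 522). Of 8 macrophage markers 7 were lower, with 223 to 387 CPM (median 295) and 176 to 283 CPM (median 248). Of 10 markers of smooth muscle, pericytes and mesangial cells 3 were lower and 1 higher, with 187 to 411 CPM (median 312) and 200.0 to 358 CPM (median 272). Among all genes 23.2% were lower and 26.8% higher. The part of these cell types in the lower collagen levels was not tested.

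Further collagens were higher. Col8a1, a short-chain network collagen, rose from 8.65 ± 1.97 to 13.5 ± 3.14 CPM (log2 fold change 0.63 ± 0.06, edgeR adjusted p = 1.12e-12), and Col18a1, the basement membrane collagen from which endostatin is cut, from 80.4 ± 20.0 to 98.3 ± 24.8 CPM (0.33 ± 0.02, edgeR adjusted p = 5.75e-18). Low-level Col20a1 rose by 0.24 ± 0.07 (edgeR adjusted p = 0.00328, lost under 1 of 17 alternatives). Col7a1 of anchoring fibrils was lower (-0.32 ± 0.08, edgeR adjusted p = 0.000318).

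Laminins are trimers of an α, a β and a γ chain. The α3 and β3 chains, known from laminin-332 of epithelial basement membranes, were lower in cKOt mice. Lama3 fell from 84.8 ± 12.8 to 62.2 ± 8.95 CPM (log2 fold change -0.45 ± 0.04, edgeR adjusted p = 6.95e-13), with the genotypes apart at 3 of 6 time points, and Lamb3 from 5.19 ± 1.52 to 3.71 ± 1.39 CPM (-0.47 ± 0.11, edgeR adjusted p = 0.00026). Both calls held under all 17 alternatives.

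The chains of laminin-511 and laminin-521, the main laminins of mature tubular and glomerular basement membranes, differed little. Lamc1 rose by 0.19 ± 0.03 (edgeR adjusted p = 1.73e-06). Lamb1 (0.10 ± 0.04, edgeR adjusted p = 0.0327) and Lamb2 (0.07 ± 0.02, edgeR adjusted p = 0.0194) passed the test, but lost it under 10 and 6 of 17 alternatives. Lama5, their shared α chain, had a log2 fold change of 0.02 ± 0.03 (edgeR adjusted p = 0.658). Lama4 of vascular basement membranes was slightly lower (-0.11 ± 0.04, edgeR adjusted p = 0.013), as were Lama2 (-0.18 ± 0.08, edgeR adjusted p = 0.0469) and Lamc3 (-0.16 ± 0.07, edgeR adjusted p = 0.0419), and these calls of Lama4, Lama2 and Lamc3 were lost under 1, 8 and 9 of 17 alternatives. Lama1 had -0.03 ± 0.05 (edgeR adjusted p = 0.621).

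Of the 14 ADAMTS genes, 1 was higher and 4 were lower. Adamts15, of the group that cuts versican and related proteoglycans, had 26.7 to 75.2 CPM in control mice (median 41.1) and 43.2 to 91.6 CPM in cKOt mice (median 63.5), a log2 fold change of 0.53 ± 0.07 (edgeR adjusted p = 1.47e-09). Adamts5, of the same group, was lower (-0.30 ± 0.08, edgeR adjusted p = 0.00101), as was the procollagen N-proteinase Adamts2 (-0.34 ± 0.09, edgeR adjusted p = 0.000886). The most abundant of the family, Adamts1, had -0.10 ± 0.06 (edgeR adjusted p = 0.178).

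MMPs and TIMPs showed small differences. Of 10 MMP genes 0 were higher and 2 lower, the collagenase Mmp13 (-0.20 ± 0.08, edgeR adjusted p = 0.0273) and the membrane-type Mmp15 (-0.16 ± 0.07, edgeR adjusted p = 0.0432), and these calls were lost under 5 and 8 of 17 alternatives. The gelatinase Mmp2 and its membrane-bound activator Mmp14 had 0.02 ± 0.10 and -0.04 ± 0.06 (edgeR adjusted p = 0.855 and 0.583). Timp3 fell from 3148 ± 319 to 2757 ± 323 CPM (-0.20 ± 0.03, edgeR adjusted p = 5.15e-07), a call that held under all 17 alternatives, and Timp2 had -0.13 ± 0.04 (edgeR adjusted p = 0.0058, lost under 4 of 17). Timp1, the inhibitor known to rise in fibrosis, was close to the detection limit at 0.248 ± 0.208 and 0.180 ± 0.119 CPM (edgeR adjusted p = 0.19).

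The next comparisons asked which genes vary over the day and whether the genotype changes this. In control mice 28 of 71 genes varied between time points (39.4%, against 30.6% of all genes), in cKOt mice 24 (33.8%, against 26.6%), and 15 varied in both (21.1%, against 16.7%). The count in cKOt mice fell to 14 when the 2 factors of unwanted variation were left out. Cosinor models with a period of 24 hours were also compared for each gene, as in dryR, and a model was accepted at a BIC weight of at least 0.65. A rhythm was assigned to 33 of 71 genes (46.5%, against 37.3% of all). Rhythm in control mice only (model 2) was assigned to 8 genes (11.3%, against 6.25%), in cKOt mice only (model 3) to 2 (2.82%, against 3.42%), the same rhythm in both (model 4) to 22 (31.0%, against 25.2%) and an altered rhythm (model 5) to 1 (1.41%, against 2.37%). No model reached the weight (model 0) for 19 genes (26.8%, against 28.7%), and no rhythm in either genotype (model 1) was assigned to 19 (26.8%, against 34.0%).

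**Figure D3:**
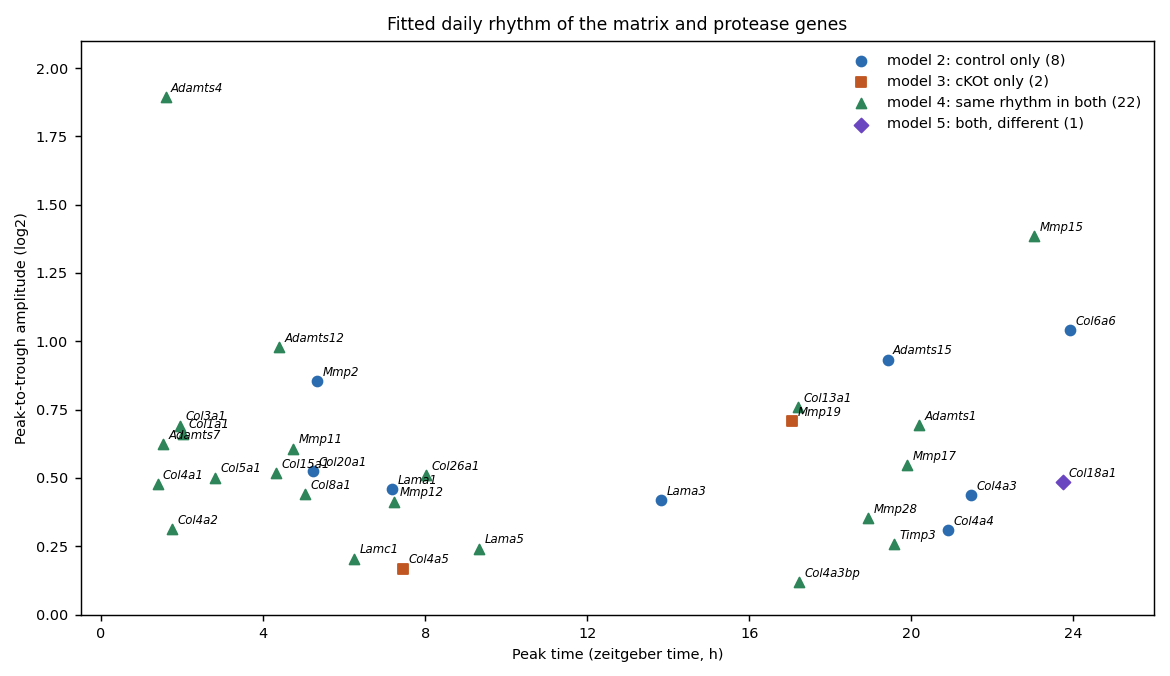
Amplitude (log2, peak to trough) against peak time (hours) for the 33 genes with an accepted rhythm, marked by model. The highest amplitudes belong to Adamts4 (1.89) and Mmp15 (1.39), whose rhythm is shared by both genotypes, and the control-only rhythms of Col6a6 and Adamts15 reach 1.04 and 0.93.

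The 8 genes with a rhythm in control mice only were Col4a3, Col4a4, Col6a6, Col20a1, Lama1, Lama3, Adamts15 and Mmp2. Col4a3 peaked at ZT21.5 with an amplitude of 0.44 and Col4a4 at ZT20.9 with 0.31. In control mice the mean of Col4a3 was 439 CPM at ZT0, 328 CPM at ZT8 and 452 CPM at ZT20 (time test, edgeR adjusted p = 6.08e-07). In cKOt mice the 6 means lay between 582 and 679 CPM and did not pass the time test (edgeR adjusted p = 0.372).

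The genotype difference of Col4a3 was therefore largest when control mice were lowest, with a log2 fold change of 0.96 ± 0.07 at ZT8 and 0.49 ± 0.07 at ZT20. This dependence on time passed the interaction test (edgeR adjusted p = 0.000198), also under 17 of 17 alternatives. For Col4a4 the difference ran from 0.41 ± 0.07 at ZT20 to 0.79 ± 0.07 at ZT8 (edgeR adjusted p = 0.0161, passed under 13 of 17 alternatives).

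Adamts15 had a control rhythm that peaked at ZT19.4. Control mice had 50.6, 57.4, 60.5, 68.7 and 75.2 CPM at ZT20 and 26.7, 27.8, 28.1, 40.1 and 42.1 CPM at ZT4. In cKOt mice the values were 50.9, 54.1, 58.7, 63.0 and 86.8 CPM at ZT20 and 65.3, 65.8, 67.5, 75.4 and 91.6 CPM at ZT4. The genotypes overlapped at ZT20, with a log2 fold change of 0.02 ± 0.16, and were apart at ZT4, with 1.15 ± 0.17. The interaction passed the test (edgeR adjusted p = 0.000994), also under 17 of 17 alternatives.

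For Col6a6 the difference was smallest at ZT0 (1.62 ± 0.26) and largest at ZT16 (3.46 ± 0.29), and the interaction passed (edgeR adjusted p = 0.0038), also under 17 of 17 alternatives, one of them without the high ZT0 mouse. Lama3 peaked in control mice at ZT13.8 (amplitude 0.42), but its interaction did not pass (edgeR adjusted p = 0.189). Lama1 and Mmp2 peaked in control mice at ZT7.18 and ZT5.34, with interaction tests of edgeR adjusted p = 0.622 and 0.625. For these 3 genes a difference in daily course between genotypes was thus not shown. The same holds for Col20a1, whose interaction did not pass either and whose model held under 11 of 14 alternatives. Col27a1 varied in control mice (edgeR adjusted p = 0.000682), with means from 72.9 CPM at ZT4 to 135 CPM at ZT16, and not in cKOt mice (edgeR adjusted p = 0.406), but no model reached the weight and the interaction did not pass (edgeR adjusted p = 0.461).

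In all, the genotype difference varied over the day for 6 of 71 genes (8.45%, against 3.08% of all genes). The other two were Mmp11 (edgeR adjusted p = 0.00552), a stromelysin, with a log2 fold change of -0.40 ± 0.12 at ZT0 and 0.36 ± 0.11 at ZT8, and Timp2 (edgeR adjusted p = 0.0295), with -0.34 ± 0.10 at ZT8 and 0.26 ± 0.10 at ZT20. They passed under 13 of 17 and 9 of 17 alternatives.

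The same rhythm in both genotypes was assigned to 22 of the 33 rhythmic genes of the list, Col4a3bp among them, or 66.7%, against 67.7% of the rhythmic genes among all genes. These 22 genes had a median amplitude of 0.51 on the log2 scale, against 0.27 for all genes of that model. The amplitudes were not matched by level or spread, and a noisier gene needs a larger amplitude to be assigned a rhythm. They therefore do not show that matrix genes cycle more strongly. Of the 22 genes, 11, or 50.0%, peaked between ZT0 and ZT6, against 8.38% of all genes of that model. Between ZT6 and ZT12, ZT12 and ZT18, and ZT18 and ZT24 there were 4, 2 and 5. The window is named because it held the most genes. Partners such as Col4a1 and Col4a2 moved together from mouse to mouse, so the genes are not independent, and the share was not tested. Mmp15 had control values of 3.82, 4.52, 4.61, 5.55 and 5.91 CPM at ZT0 and 1.21, 1.52, 1.91, 2.03 and 2.04 CPM at ZT12. In cKOt mice it had 3.96, 4.12, 4.26, 4.34 and 5.34 CPM at ZT0 and 1.05, 1.09, 1.29, 1.64 and 2.04 CPM at ZT12. All mice at ZT0 were above all mice at ZT12 in both genotypes, and the shared peak was at ZT23.0 with an amplitude of 1.39 (interaction, edgeR adjusted p = 0.998).

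Adamts4 had the highest amplitude, 1.89, with a peak at ZT1.59, but low levels of 0.792 and 0.784 CPM on average and as few as 3 reads in a library. Adamts1 peaked at ZT20.2 with 0.69 and Adamts12 at ZT4.39 with 0.98. The interstitial collagens Col1a1 and Col3a1 peaked at ZT2.03 and ZT1.94 with amplitudes of 0.66 and 0.69. Col4a1 and Col4a2 peaked at ZT1.40 and ZT1.75 with 0.48 and 0.31, assignments that held under 8 of 14 and 12 of 14 alternatives. Within collagen IV, a shared rhythm was thus assigned to the α1 and α2 chains and a control-only rhythm to the α3 and α4 chains.

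Col18a1 was assigned an altered rhythm, peaking at ZT23.7 in control mice (amplitude 0.48) and at ZT21.8 in cKOt mice (amplitude 0.31). Its interaction did not pass (edgeR adjusted p = 0.12), and the model held under 9 of 14 alternatives. The cKOt-only rhythms of Col4a5 and Mmp19 held under 5 of 14 and 8 of 13.

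**Figure D4:**
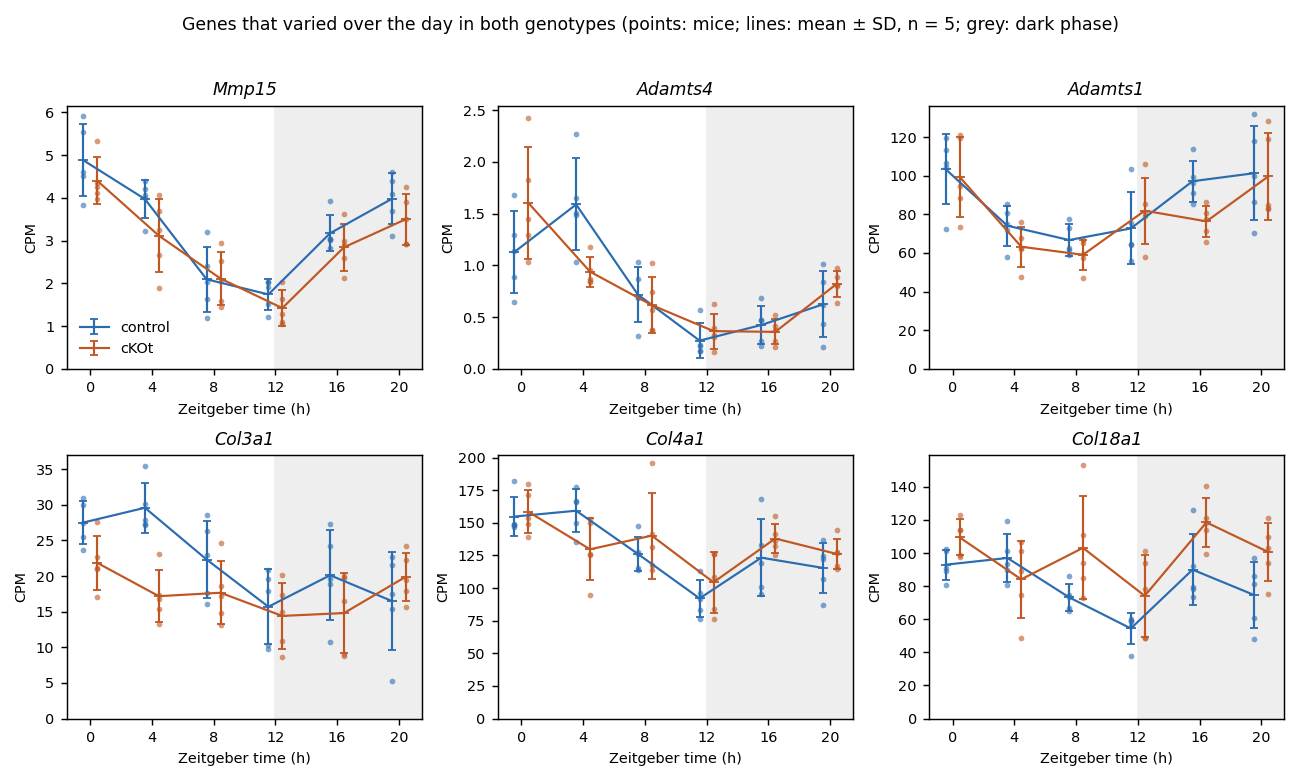
CPM of Mmp15, Adamts4, Adamts1, Col3a1, Col4a1 and Col18a1 in each of 60 mice against zeitgeber time, for control and cKOt mice (5 of each per time point). All 6 genes passed the time test in both genotypes, and Mmp15 at ZT0 lies above its values at ZT12 in every mouse of both genotypes.

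Whether partner chains moved together from mouse to mouse was examined in 12 pairs, using each mouse's deviation from the mean of its own group (log2 CPM, 60 mice, 2-sided permutation within groups, Benjamini-Hochberg over the 12 pairs). The correlation was highest for Col4a1 and Col4a2 (Pearson r = 0.95, Spearman rho = 0.94, permutation p = 1e-05 for each, the smallest that 100000 permutations can give, adjusted p = 1.33e-05 and 1.2e-05). For Col4a3 and Col4a4 it was r = 0.66 and rho = 0.63 (permutation p = 3e-05 and 1e-05, adjusted p = 3.27e-05 and 1.2e-05). Without the 2 mice farthest from the median, r was 0.95 and 0.65 for these pairs. Within the 6 library batches r ran from 0.91 to 0.97 for Col4a1 with Col4a2 and from 0.21 to 0.95 for Col4a3 with Col4a4.

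In all, 11 of 12 pairs passed, and these had a positive r in each of the 6 batches. Col5a1 and Col5a2 did not pass (r = 0.27, rho = 0.16, permutation adjusted p = 0.124 and 0.303). After removal of unwanted variation 9 of 12 passed, with Lama5 and Lamb2 falling from r = 0.85 to 0.29 and Lamb2 and Lamc1 from 0.64 to 0.10. The same removal gave r = 0.81 both for Col4a1 with Col4a2 and for Col4a3 with Col4a4, so that these pairs no longer differed. Both genes of a pair share their library, so that the makeup of each piece of kidney enters both values.

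**Figure D5:**
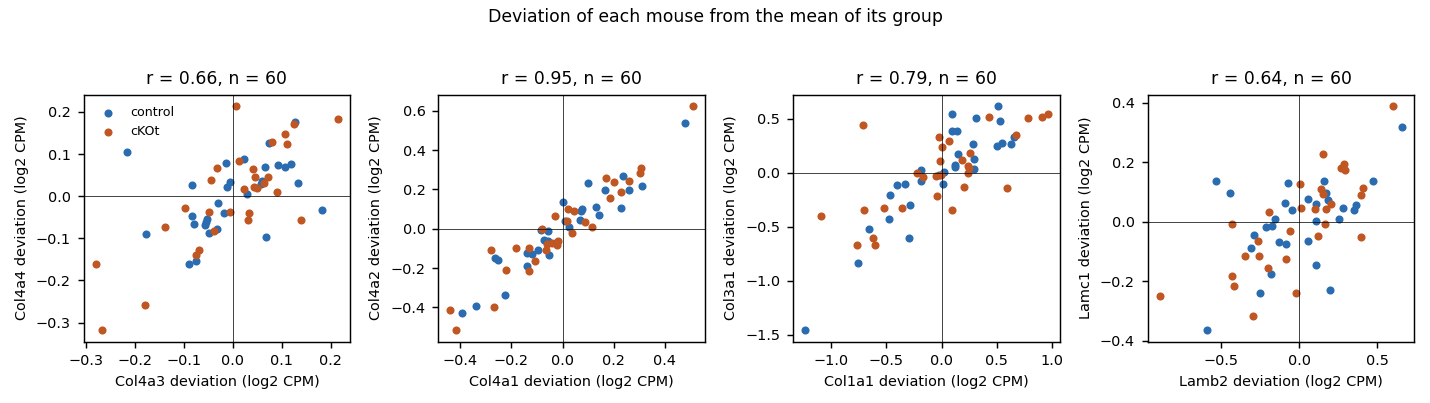
Deviation of each of 60 mice from its group mean (log2 CPM) for 4 pairs of partner genes, each point a mouse. Points lie close to a line for Col4a1 with Col4a2 (r = 0.95) and scatter more for Col1a1 with Col3a1 (r = 0.79), Col4a3 with Col4a4 (r = 0.66) and Lamb2 with Lamc1 (r = 0.64). Values are shown before removal of unwanted variation, after which r was 0.81 for Col4a1 with Col4a2 and for Col4a3 with Col4a4.

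Other genes of the matrix were described from lists of linkers, enzymes and receptors. Of 14 other basement membrane genes, 8 were higher and 4 lower. Npnt (nephronectin, an integrin ligand of basement membranes) rose from 183 ± 52.2 to 339 ± 25.5 CPM (log2 fold change 0.94 ± 0.03, edgeR adjusted p = 1.37e-32) and Frem2 from 19.7 ± 2.92 to 35.7 ± 6.07 CPM (0.85 ± 0.05, edgeR adjusted p = 1.17e-19). Of 25 genes of collagen synthesis and crosslinking, 8 were higher and 8 lower. The crosslinking enzyme Loxl4 rose from 3.62 ± 1.25 to 38.2 ± 8.71 CPM (log2 fold change 3.43 ± 0.06, edgeR adjusted p = 6.18e-44), and the lysyl hydroxylase Plod2 rose from 53.5 ± 11.9 to 113 ± 15.4 CPM (1.08 ± 0.03, edgeR adjusted p = 4.59e-33).

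Of 25 other interstitial matrix genes, 1 was higher and 13 were lower, with Fn1 (fibronectin) at -0.42 ± 0.07 (edgeR adjusted p = 1.79e-06) and Fmod (fibromodulin) at -0.41 ± 0.06 (edgeR adjusted p = 9.11e-08). Among 24 integrins and matrix receptors, 10 were higher and 7 lower, with Itgb6 at 0.72 ± 0.05 and Itga6, a subunit of laminin receptors, at 0.67 ± 0.04 (edgeR adjusted p = 2.31e-18 and 4.11e-21). Of 30 other proteases and inhibitors, 6 were higher and 10 lower, with the serine protease Htra1 at 0.59 ± 0.03 (edgeR adjusted p = 2.78e-22). Of 22 genes of the TGF-beta pathway, a driver of matrix production, 4 were higher and 9 lower, with Ccn2 at -0.27 ± 0.08 and Tgfb2 at -0.26 ± 0.08 (edgeR adjusted p = 0.0034 and 0.00348), the call of Ccn2 being lost under 1 of 17 alternatives. Of 8 injured tubule markers, 3 were higher and 2 lower. These counts stand beside 26.8% higher and 23.2% lower among all genes, and no list was tested.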

How the data were processed

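RNA was measured by single-read, stranded mRNA sequencing of 60 kidney samples. Per the labels and the submitters' processing notes, the authors trimmed reads with cutadapt 1.8, aligned them to GRCm38 with STAR 2.5.3a and counted them per gene with HTSeq 0.9.1, and the deposited values are these raw counts. Rows that name no gene (reads outside genes, 7.17% to 10.6% of reads, and ambiguous reads, 0.953% to 1.27%) were left out. Of 6 mice per group the authors kept 5, chosen by RNA integrity and by how far a sample lay from its replicates in ordination plots, and the study marks 1 deposited library (cKOt ZT16 replicate 4) for removal, which was kept here and left out as an alternative. 

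Genes with 1 CPM in at least 1 sample were kept (15546). In R 4.3.3, edgeR 4.0.16 fitted 12 group means and 2 RUVs factors of unwanted variation, estimated from replicates, to counts scaled by TMM (factors 0.9082 to 1.069). Quasi-likelihood tests compared the genotypes averaged over 6 time points, the genotype difference between time points (interaction), and the time points within each genotype, with Benjamini-Hochberg adjustment over all 15546 genes. Fold changes depend on the TMM scaling and on these factors, which were estimated from the same data. Rhythms were chosen among 5 cosinor models by BIC weight on log2 CPM (prior count 2) after removal of the 2 factors. CPM printed per mouse were scaled by TMM and not corrected for the factors. RPKM divided CPM by the exon length of the gene. The statistics were tested on simulated data. Alternatives used DESeq2 1.42.0, limma 3.58.1, other filters, other scaling, library batch (from the study's sample sheet), the replicate number as a block and left-out samples. Of the 17 settings for single genes, 2 that leave out 1 control library each were chosen after seeing the data.

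Of 120 replicate pairs 0 were identical, and the lowest ratio of squared difference to counting noise was 5.45. Replicates are separate mice per the labels. Deviations from the group means correlated at 0.004326 on average between samples with the same replicate number (330 pairs) and at -0.001034 between others (1320 pairs), so the numbers were not taken to pair mice. Between samples of the same library batch they correlated at 0.03608 (270 pairs), and at -0.007014 between batches (1380 pairs). Batch was not a term of the main fit and entered as an alternative only.

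The genes and lists were chosen with earlier results of these data known. Named genes were the 2 highest of each family by mean CPM, a fixed set (the collagen I, III and IV chains, Lama5, Lamb2, Lamc1, Mmp2, Mmp14 and the TIMPs), the 8 largest changes in each direction among called genes of at least 1 CPM, the 6 smallest interaction p-values, and the 3 largest amplitudes of each rhythm model. From other lists, at most 2 genes with the largest called change were named. Col6a1 to Col6a5, Col5a1, Col5a2, Col7a1, Col15a1, Lama1, Lama2, Lama4, Lamc3, Adamts5 and Mmp13 were named, where the rule did not name them, after their values were seen. Promoter sequences are from RefSeq on GRCm38.p6. Results of some genes are not reported here.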

Additional observations from a re-analysis of the deposited data

Results flagged for a closer look

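The genotype difference changed with the time of day for 6 genes (interaction, edgeR quasi-likelihood test, Benjamini-Hochberg over all genes). The adjusted p was 0.000198 for Col4a3, 0.000994 for Adamts15, 0.0038 for Col6a6, 0.00552 for Mmp11, 0.0161 for Col4a4 and 0.0295 for Timp2. Over 17 alternatives, it stayed below 0.05 throughout for Col4a3 (at most 0.0311), Col6a6 (at most 0.0472) and Adamts15 (at most 0.0487), and reached 0.101 for Mmp11, 0.33 for Col4a4 and 0.226 for Timp2.

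Of 624 groups of 5 mice examined for 52 named genes, 37 held 1 mouse far from the other 4 by Dixon's criterion, where chance alone flags about 1 group in 20. Values are given as the level of that mouse and the range of the other 4. Col14a1 had a low control mouse at ZT16 (27.0 CPM, others 50.9 to 59.2). Col18a1 had a low control mouse at ZT12 (37.8 CPM, others 56.2 to 60.3). Col19a1 had a high cKOt mouse at ZT16 (5.32 CPM, others 2.07 to 2.93). Col27a1 had a high control mouse at ZT0 (118 CPM, others 60.5 to 76.5). Col4a1 had a high control mouse at ZT0 (182 CPM, others 147 to 149). Col4a2 had a high control mouse at ZT0 (132 CPM, others 99.7 to 109) and a high cKOt mouse at ZT16 (119 CPM, others 92.7 to 97.6). Col4a3 had a low cKOt mouse at ZT12 (557 CPM, others 692 to 729.7). Col4a5 had a high cKOt mouse at ZT12 (61.1 CPM, others 54.5 to 56.3). Col5a2 had a low cKOt mouse at ZT8 (24.3 CPM, others 30.3 to 32.6). Col6a1 had a low control mouse at ZT20 (6.59 CPM, others 12.5 to 14.6). Col6a4 had a high cKOt mouse at ZT20 (1.00 CPM, others 0.419 to 0.583). Col6a5 had a high cKOt mouse at ZT12 (0.795 CPM, others 0.360 to 0.442). Col6a6 had a high control mouse at ZT0 (32.9 CPM, others 7.51 to 12.9), a high control mouse at ZT12 (8.44 CPM, others 5.58 to 6.34) and a high cKOt mouse at ZT12 (83.4 CPM, others 49.4 to 58.7).

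Laminin chains and proteases showed the same kind of single mice. Lama1 had a low cKOt mouse at ZT4 (22.4 CPM, others 33.3 to 37.1) and a high cKOt mouse at ZT12 (36.2 CPM, others 26.3 to 28.6). Lama2 had a low control mouse at ZT16 (19.0 CPM, others 35.4 to 36.9). Lama3 had a low control mouse at ZT16 (78.4 CPM, others 95.5 to 99.9). Lama4 had a high control mouse at ZT16 (13.6 CPM, others 10.1 to 10.9). Lama5 had a high control mouse at ZT16 (163 CPM, others 86.7 to 108). Lamb1 had a high cKOt mouse at ZT8 (198 CPM, others 137 to 154). Lamb2 had a low control mouse at ZT12 (21.0 CPM, others 31.6 to 34.8) and a high control mouse at ZT16 (65.1 CPM, others 34.6 to 38.8). Lamc1 had a low control mouse at ZT20 (35.9 CPM, others 48.2 to 51.0). Lamc3 had a high cKOt mouse at ZT0 (19.8 CPM, others 12.8 to 13.3). Adamts15 had a low control mouse at ZT8 (32.6 CPM, others 35.6 to 36.7). Adamts4 had a high control mouse at ZT12 (0.566 CPM, others 0.169 to 0.230). Mmp13 had a high cKOt mouse at ZT12 (5.03 CPM, others 2.62 to 3.13). Mmp15 had a high control mouse at ZT16 (3.92 CPM, others 2.84 to 3.05) and a high cKOt mouse at ZT0 (5.34 CPM, others 3.96 to 4.34). Mmp2 had a low control mouse at ZT8 (3.65 CPM, others 4.63 to 4.98) and a high control mouse at ZT12 (4.36 CPM, others 2.09 to 2.64). Timp1 had a high control mouse at ZT12 (0.506 CPM, others 0.0581 to 0.172) and a low control mouse at ZT16 (0.0574 CPM, others 0.322 to 0.417). Timp3 had a high control mouse at ZT20 (3739 CPM, others 3332 to 3428). The values of Timp1, Adamts4, Col6a4 and Col6a5 rest on few reads. The flags are not independent, since some mice were flagged for several genes. Control ZT16 replicate 1 was the high mouse of Lama4, Lama5, Lamb2 and Mmp15. Control ZT16 replicate 4 was the low mouse of Col14a1, Lama2 and Lama3, and control ZT0 replicate 1 the high mouse of Col4a1, Col4a2 and Col6a6. Leaving out control ZT0 replicate 1, the high mouse of Col6a6, moved the log2 fold change of that gene from 2.77 to 2.86.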

How the results depend on the processing

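Of 41 genes that differed between genotypes, 41 were shared with the fit that took the replicate number as a block, which called 42. With the replicate block, 27 genes varied over the day in control mice, 25 in cKOt mice and 6 had a difference that varied over the day, and the numbers were not taken to pair mice. Across settings other than left-out replicates, the genotype count ran from 30 (no RUVs factors) to 42, and 19 passed with a fold change above 1.2 added. Among all 15546 genes, 3442 were higher and 2938 lower without RUVs factors, against 4174 and 3604 in the main fit. The count thus fell among all genes too. Leaving out each replicate number in turn gave 29 to 44 genes (without replicate 2 and without replicate 5). Among all genes, 3550 were higher and 3232 lower of 15466 without replicate 2. Without replicate 5, 3559 were higher and 3392 lower of 15460. For the varying difference, 6 genes passed, 3 with batch in place of the RUVs factors and 3 to 6 with samples left out. In cKOt mice 24 genes varied over the day, 14 without RUVs factors or with batch, and 13 to 24 with samples left out (13 without replicate 1, 15 without replicate 2 and 14 without replicate 4). In control mice 28 varied, and 21 to 29 with samples left out. A rhythm was assigned to 33 genes, and to 24 to 39 under the alternatives. These counts of daily variation and rhythm are given without the share of all genes under each setting. They therefore do not show a change particular to the matrix genes. The cause of these changes was not tested.

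Among 880 fold changes of named genes under alternatives, 782 kept direction and side of the threshold, 67 lost it, 14 gained it and 17 changed sign, none of them a called value. The sign changes were in Adamts12 (-0.1719 to 0.04075 with 1 replicate number left out, 0.02183 without replicate 2), Adamts4 (-0.005703 with batch, -0.00365 without control ZT20 replicate 2, and -0.006633 to 0.08627 with 1 replicate number left out), Lama1 (-0.08672 to 0.01259, likewise), Lama5 (-0.008196 without RUVs factors, -0.01762 with batch, and -0.0275 to 0.0761 with 1 replicate number left out, -0.00977 without replicate 4), Mmp19 (-0.03496 to 0.3019, likewise) and Mmp2 (-0.01315 without RUVs factors, -0.0343 with batch, and -0.05996 to 0.09609 with 1 replicate number left out), the last being near 0 without control ZT20 replicate 2 (-0.0002). The correlation of Col5a1 with Col5a2 was -0.045 after removal of unwanted variation and -0.41 and -0.40 in batches 4 and 5. With DESeq2 size factors, 3726 of all genes were higher and 3881 lower, against 4174 and 3604. Among called genes of the list the higher share was 28.6% against 31.7%. Genes with few reads, such as Timp1, Col6a5 and Adamts4, allow no small difference to be detected at this depth.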
